A study of Mus musculus with 7 samples.

Results

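Promoters with an H3K4me2 peak in rib chondrocytes and no H3K27ac peak in any library were examined. A promoter was the 2 kb around the start (TSS) of a protein-coding gene, 1 kb on each side, and 1 overlapping base pair was enough for a peak to count. Of 18089 promoters that could be placed in both mouse annotations used, 11985 (66.3%) carried an H3K4me2 peak and 9810 (54.2%) carried an H3K27ac peak in at least 1 of 5 lists. By list, H3K27ac was found at 44.2% and 43.1% of promoters in the first and second chondrocyte library, 50% in WT and 47.1% in deletion chondrocytes, and 47.5% in fibroblasts. The set with H3K4me2 and no H3K27ac held 2616 promoters, which is 14.5% of all promoters and 21.8% of those with H3K4me2. The promoters were thus chosen by measured values, the presence of H3K4me2 peaks and the absence of H3K27ac peaks, so the counts are a description and were not tested.

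The peak lists came from primary chondrocytes isolated from rib cartilage of newborn mice and from primary dermal fibroblasts isolated from skin. Chondrocytes gave 1 H3K4me2 library, 2 H3K27ac libraries, and a further pair of H3K27ac libraries, 1 from WT mice and 1 from E160(delta/delta);E308(delta/delta) mice, which lack 2 enhancers of Sox9. Fibroblasts gave 1 H3K27ac library. No group other than the chondrocyte H3K27ac pair had a replicate, so the text gives counts, shares and medians with 95% intervals that cover counting error only, and no test. An input library is not analysed here. The lists held between 19454 and 66355 peaks, their read depth is unknown, and the absence of a peak means that none was called. Of the H3K27ac peaks from the deletion mice, 98.9% overlapped a WT peak, and of the WT peaks 62.8% overlapped a peak from the deletion mice. Of 20 cartilage genes, 16 had H3K27ac at the promoter in at least 1 list, and so did all 8 fibroblast markers, beside 54.2% of all promoters. Sox9 and Acan had it in 4 lists each, as did the fibroblast marker Col1a1. These counts pool chondrocyte and fibroblast lists, so they do not check the cell type labels.

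Dimethylation of histone H3 at lysine 4 (H3K4me2) marks promoters and enhancers that are accessible to transcription factors, whether or not the gene is transcribed. Acetylation of lysine 27 (H3K27ac) is placed at promoters and enhancers in use. Promoters with H3K4 methylation and without H3K27ac are often those of regulators of other lineages, many of them rich in CpG dinucleotides and held by Polycomb complexes. Polycomb marks were not measured in these libraries.

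To show what these promoters look like, the reference sequence of 5 of them is printed from 250 bases before the TSS to 50 bases from it, on the strand of the gene (mm9). Each but the last has the widest H3K4me2 peak in a gene list: Hox genes, other homeobox genes, ion channels, and cytokine and immune receptor genes. The list of other homeobox genes does not hold Onecut2. The last is the promoter with the lowest CpG content among the widest and highest-scoring peaks. CpG dinucleotides are in capitals, and every other base is in lower case. Hoxb8 (homeobox factor of the body axis) lies at chr11:96142969-96143268 on the plus strand and Lhx1 (LIM homeobox factor of kidney and head development) at chr11:84338874-84339173 on the minus strand. Kcng3 (a modifier subunit of voltage-gated potassium channels) lies at chr17:84031186-84031485 and Il17rb (a receptor for interleukin 17 family cytokines) at chr14:30822033-30822332, both on the minus strand. Tchh (trichohyalin, a structural protein of hair follicles) lies at chr3:93246002-93246301 on the plus strand.
Hoxb8: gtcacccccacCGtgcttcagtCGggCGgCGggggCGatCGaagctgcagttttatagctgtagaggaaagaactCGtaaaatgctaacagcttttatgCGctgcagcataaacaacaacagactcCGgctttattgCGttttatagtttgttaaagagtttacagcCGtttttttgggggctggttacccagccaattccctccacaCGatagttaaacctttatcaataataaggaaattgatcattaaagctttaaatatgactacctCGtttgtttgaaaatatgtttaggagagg
Lhx1: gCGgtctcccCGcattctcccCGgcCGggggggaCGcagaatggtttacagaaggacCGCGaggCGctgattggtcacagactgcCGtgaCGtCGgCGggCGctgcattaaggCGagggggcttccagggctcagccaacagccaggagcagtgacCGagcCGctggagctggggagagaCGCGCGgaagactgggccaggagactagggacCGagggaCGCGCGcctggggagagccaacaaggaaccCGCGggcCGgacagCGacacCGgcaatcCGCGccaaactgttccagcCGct
Kcng3: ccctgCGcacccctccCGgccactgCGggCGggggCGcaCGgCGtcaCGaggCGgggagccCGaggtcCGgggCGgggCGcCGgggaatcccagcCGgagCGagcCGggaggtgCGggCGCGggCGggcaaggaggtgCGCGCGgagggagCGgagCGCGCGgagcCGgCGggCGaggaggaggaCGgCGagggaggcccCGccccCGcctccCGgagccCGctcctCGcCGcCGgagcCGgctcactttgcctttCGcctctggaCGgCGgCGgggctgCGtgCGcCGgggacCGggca
Il17rb: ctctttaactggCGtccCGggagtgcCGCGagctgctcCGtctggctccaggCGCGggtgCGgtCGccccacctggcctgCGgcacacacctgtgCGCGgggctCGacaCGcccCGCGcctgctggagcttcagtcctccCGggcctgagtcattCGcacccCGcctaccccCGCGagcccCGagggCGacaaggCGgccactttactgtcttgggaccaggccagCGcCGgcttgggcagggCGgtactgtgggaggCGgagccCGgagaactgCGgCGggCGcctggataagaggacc
Tchh: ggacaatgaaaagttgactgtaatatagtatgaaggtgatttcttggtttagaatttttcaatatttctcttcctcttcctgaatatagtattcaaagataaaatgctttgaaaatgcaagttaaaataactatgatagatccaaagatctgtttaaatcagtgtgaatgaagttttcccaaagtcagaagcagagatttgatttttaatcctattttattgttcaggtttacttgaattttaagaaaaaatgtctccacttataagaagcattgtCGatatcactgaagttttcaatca

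In these windows of 300 bases Hoxb8 held 13 CpG dinucleotides, Lhx1 31, Kcng3 49, Il17rb 32 and Tchh 1. The H3K4me2 peaks over these promoters were 3077 bp wide at Hoxb8, 4635 bp at Lhx1, 3713 bp at Kcng3, 4804 bp at Il17rb and 5309 bp at Tchh. CpG-dense and CpG-poor promoters thus both occurred among those with wide peaks. The peak at Il17rb also reached the start of Chdh (choline dehydrogenase), which is a member of the set on the opposite strand. The Tchh peak began downstream of the TSS, at chr3:93247068, and covered the gene rather than its start. The start of Hoxb8 differed between the mm9 and GRCm38 annotations, so its second chondrocyte H3K27ac value was read at another place.

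H3K4me2 peaks were narrower at promoters without H3K27ac than at promoters with it. The widest peak that reached within 1 kb of the TSS had a median width of 1500 bp (95% interval 1473 to 1539) over the 2616 promoters without H3K27ac, with quartiles of 1045 and 2008 bp and a range from 215 to 7094 bp. Over the 9369 promoters with H3K4me2 and H3K27ac in at least 1 list the median was 2280 bp (2257 to 2299). Between these lay the 600 promoters with H3K27ac in exactly 1 list, at 1848 bp (1760 to 1918), and the 6526 with H3K27ac in all 5 lists had a median of 2356 bp (2326 to 2385). A peak of at least 2 kb was found at 664 promoters without H3K27ac (25.4%) and at 63.1% of those with it, and a peak of at least 3 kb at 126 (4.82%) and 24.9%. The distributions overlapped widely, and 34 promoters without H3K27ac had a peak of at least 4 kb.

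**Figure D1:**
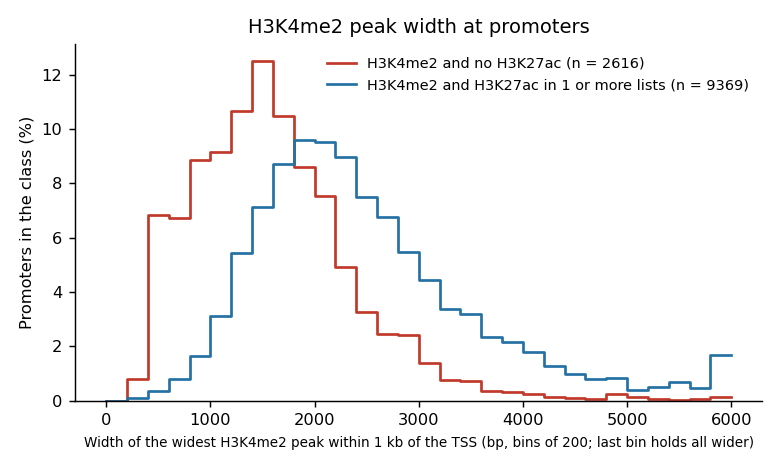
Width in bp of the widest H3K4me2 peak within 1 kb of the TSS (horizontal axis, bins of 200 bp) against the percent of promoters in each class (vertical axis), for 2616 promoters without H3K27ac (red) and 9369 with H3K27ac in at least 1 list (blue). The red curve lies to the left, with a median of 1500 bp against 2280 bp, and both classes have a tail above 4 kb.

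The rank of the peak score differed less than the width. Placed by score among all H3K4me2 peaks, the median promoter without H3K27ac stood within the highest 16.9% (15.9 to 17.96) and the median promoter with H3K27ac within the highest 15.1% (14.7 to 15.5). Within the set, width and score went together (Spearman's rho 0.65 across 2616 promoters of 1 library, a description, since both come from the same peaks). Width had almost no relation to the length of the gene (rho 0.09) or to the distance to the nearest H3K27ac peak (rho 0.05).

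The shape of H3K4me2 around the TSS also differed. At promoters without H3K27ac a single peak usually lay over the start: the TSS itself was covered at 2200 promoters (84.1%, 82.6 to 85.5), and only 161 (6.15%) had 2 or more peaks within 1 kb. At promoters with H3K27ac in all 5 lists the TSS was covered at 60.9% (59.7 to 62.1), coverage was 93.8% at 900 bp downstream, and 51.3% had 2 or more peaks. Coverage at 900 bp downstream was 54.2% at promoters without H3K27ac. The midpoint of the widest peak lay 198 bp downstream of the TSS in the median promoter without H3K27ac, and 904.5 bp downstream where all 5 lists had H3K27ac. Promoters with H3K27ac in exactly 1 list had the TSS covered at 84.8% (81.7 to 87.6), an interval that holds the value of the set without H3K27ac.

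**Figure D2:**
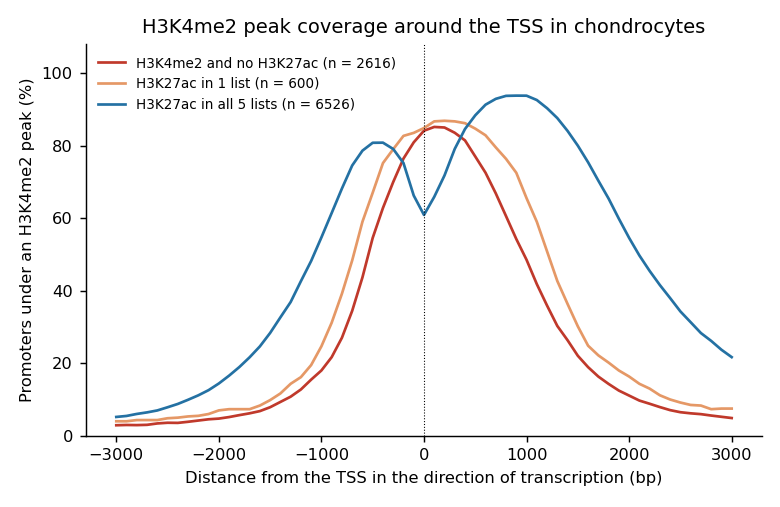
Percent of promoters under an H3K4me2 peak (vertical axis) at each distance from the TSS in bp, downstream to the right (horizontal axis), for promoters without H3K27ac (red, n = 2616), with H3K27ac in 1 list (orange, n = 600) and in all 5 lists (blue, n = 6526). The red curve has a single summit of 85.1% at 100 bp downstream of the TSS and stands at 84.1% at the TSS, whereas the blue curve dips to 60.9% at the TSS and reaches 93.8% at 900 bp downstream.

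The 10 widest peaks of the set were at genes for transcription factors, neural adhesion molecules and a few genes of other kinds. Bcl11a, a zinc-finger factor of blood and neural development, had the widest at 7094 bp (chr11:23975810-23982903). Its nearest H3K27ac peak was 3.01 kb away in the first chondrocyte library, 2.90 kb in fibroblasts, 3.25 kb in WT and 3.97 kb in deletion chondrocytes, while the second chondrocyte library was read at a GRCm38 start that differed from the mm9 one. H3K27ac thus lay within a few kb of the Bcl11a start in both tissues. Of the 4 H3K27ac peaks inside the gene in the mm9 lists, 3 lay at another annotated start of Bcl11a. The protocadherins Pcdh17 and Pcdh10, adhesion molecules of neurons, followed with peaks of 6372 and 6238 bp, and no H3K27ac peak of any list lay within 1484 kb of Pcdh17 or within 1069 kb of Pcdh10. Onecut2, a homeobox factor of liver and neurons, had a peak of 6021 bp, and Foxb2, a forkhead factor, one of 5441 bp.

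Hsd17b1, an enzyme of estradiol synthesis, had a peak of 5628 bp that began downstream of the TSS, with its midpoint 3074 bp into the direction of transcription. The gene is 2.117 kb long, so the midpoint of the peak lay past the end of the gene. Egr3, an immediate early zinc-finger factor, had 5624 bp, and its nearest H3K27ac peak was 1.81 kb away in WT chondrocytes and 1.96 kb away in fibroblasts, against 22.0, 18.5 and 22.2 kb in the first, second and deletion chondrocyte libraries. The groups were therefore not separated by tissue at this gene. The near edges of its WT and fibroblast H3K27ac peaks lay within the H3K4me2 peak at chr14:70473817-70479440 (TSS at 70477252). Mycn, a Myc family factor, had a peak of 5300 bp with the nearest H3K27ac 307 kb away in each of the 5 lists. Pou3f2, a POU factor of neurons, had 5120 bp, with H3K27ac no closer than 66.8 kb.

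The highest-scoring peaks were at other genes than the widest, and none of the 10 names was shared. They were at Slc7a8 (an amino acid transporter, 1658 bp wide), Sema5b (an axon guidance semaphorin, 3632 bp), Kctd1 (a repressor of AP-2 factors, 2495 bp), Ntrk2 (the receptor of brain-derived neurotrophic factor, 2802 bp), Mob3b, Rhpn1, Pdlim3, Grm8 (a glutamate receptor, 2313 bp), Plcxd3 and Rimbp3. Each of these stood among the highest 0.0738% of H3K4me2 peaks by score. H3K27ac inside the gene was found in at least 1 list for Slc7a8, Sema5b, Kctd1, Ntrk2 and Mob3b, and in none for the other 5. At the low end, Ppef2 (a protein phosphatase of photoreceptors), Cacng2 and Hmcn2 had the lowest scores, between 50.07 and 50.48, just above the lowest score of the list, 50. The narrowest peaks were 215 bp at Gm13283, 268 bp at Ifi203 and Mndal, which share a peak, and 290 bp at Fcgr3.

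Developmental regulators were a large part of their own families in this set. Of 320 promoters in 5 lists of lineage transcription factors, 168 (52.5%, 46.9 to 58.1) had H3K4me2 and no H3K27ac, beside 14.5% of all promoters. A further 96 had H3K27ac in at least 1 list and 56 had neither mark. Counted among the 243 of these promoters with H3K4me2, the share was 69.1%, beside 21.8% over all promoters with H3K4me2. The 168 promoters had a median peak width of 2007 bp, beside 1500 bp over the set, and made up 6.42% of it. Their share was higher at wider peaks, at 3.13% (1.89 to 4.84) of the 608 promoters with peaks under 1 kb, 4.84% at 1 to 2 kb, 10.8% at 2 to 3 kb and 20.6% (13.9 to 28.8) of the 126 with peaks of 3 kb or more. The lists were chosen with earlier results of these data known, and no set test was made.

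In a chosen list of homeobox genes outside the Hox clusters, 64 of 109 promoters (58.7%, 48.9 to 68.1) were members, with a median width of 2129 bp. The list does not hold every such gene, and Onecut2, with a peak of 6021 bp, is not in it. The widest in the list were at Lhx1 (4635 bp) and Gsx1 (a factor of ventral forebrain, 4088 bp). Lhx6 (a factor of cortical interneurons, 3996 bp) and Lhx4 (a factor of pituitary and motor neurons, 3568 bp) followed. At Lhx1 the nearest H3K27ac peak was at a similar place in every library, 11.2 kb and 11.6 kb away in the chondrocyte libraries, 11.4 kb in WT, 11.9 kb in deletion chondrocytes and 11.9 kb in fibroblasts. At Gsx1 it was 93.9 kb away in WT and 94.2 kb in the first chondrocyte library, and 111 kb away in the other 3.

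Of Hox genes, which specify position along the body axis, 15 of 38 were members (39.5%, 24.0 to 56.6), with 19 carrying H3K27ac and 4 neither mark. With only the higher-scoring 50% of H3K4me2 peaks counted, 9 Hox genes were members. The 15 were Hoxa9, Hoxa10, Hoxa11, Hoxa13, Hoxb1, Hoxb8, Hoxb13, Hoxc10, Hoxc11, Hoxc12, Hoxc13, Hoxd1, Hoxd10, Hoxd11 and Hoxd13. Of these, 12 belong to the posterior groups 9 to 13 of the clusters, and the others are Hoxb1, Hoxb8 and Hoxd1. How many of the 38 Hox promoters belong to groups 9 to 13 is not given here, so no preference for a position is read from this. Peaks were 3077 bp wide at Hoxb8, 2687 bp at Hoxa11, 2357 bp at Hoxc13 and 2035 bp at Hoxd1, and the narrowest was 620 bp at Hoxa13.

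Of Fox, Sox, Pax and T-box genes, 37 of 84 promoters (44.0%, 33.2 to 55.3) were members. Foxb2, Eomes (a T-box factor of mesoderm and cortex, 3514 bp), Foxl2 (a factor of the ovary, 3403 bp) and Sox21 (a neural progenitor factor, 3295 bp) had the widest peaks. Lineage bHLH genes had 26 of 49 (53.1%, 38.3 to 67.5), and only 10 of 49 carried H3K27ac. Wide peaks were at Neurog2 (3970 bp) and Atoh1 (3195 bp), which drive neurogenesis, and at Hand2 (3515 bp), a factor of heart and limb. At Atoh1 the nearest H3K27ac peak lay 313 kb away in all 5 lists. Zinc-finger and AP-2 developmental genes had 26 of 40 (65.0%, 48.3 to 79.4), with Bcl11a, Sall1 (a factor of kidney and limb, 4871 bp), Prdm1 (a factor of plasma cells and germ cells, 4219 bp) and Zic5 (a factor of neural crest, 2899 bp) at the head. Prdm1 had H3K27ac 5.80 kb away in fibroblasts alone, and at least 259 kb away in each chondrocyte library.

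In the list of developmental ligand families, drawn by gene name, 36 of 69 promoters were members (52.2%, 39.8 to 64.4). The name pattern also caught Fgf11, Fgf12, Fgf13 and Fgf14, which are members but do not encode secreted ligands. The widest in the list were at Fgf11 (4976 bp), Ihh (4660 bp), Bmp6 (4059 bp) and Fgf15 (3002 bp). Ihh encodes Indian hedgehog, which prehypertrophic chondrocytes of the growth plate secrete. Its H3K4me2 peak lay at chr1:74994236-74998895, and the nearest H3K27ac peak was 122 kb away in the first, WT, deletion and fibroblast libraries, with the second chondrocyte library at 134 kb but read at another annotated start. The 4 libraries read at this start thus had no H3K27ac near Ihh, in either tissue.

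The lists of ion channels, neurotransmitter receptors and synaptic genes, which work in excitable cells, also had over 50% of their promoters in the set. Ion channels had 81 of 132 promoters in the set (61.4%, 52.5 to 69.7), neurotransmitter receptors 59 of 102 (57.8%, 47.7 to 67.6) and synaptic and neuronal adhesion genes 41 of 69 (59.4%, 46.9 to 71.1). Their median widths were 1590, 1606 and 1499 bp, near the 1500 bp of the whole set and below the 2007 bp of the transcription factors. The potassium channel genes Kcng3 (3713 bp), Kcna1 (3222 bp), Kcnh3 (3152 bp) and Kcnd3 (3076 bp) had the widest channel peaks. Among receptors these were Adra2a (an adrenergic receptor, 5028 bp), Chrm4 (a muscarinic receptor, 3125 bp), Grik3 (a kainate receptor, 2735 bp) and Adra1a (2677 bp). Slitrk1 (4087 bp), Sv2c (3921 bp), Slitrk5 (3783 bp) and Rims2 (3177 bp), which act in synapse formation and vesicle release, led the synaptic genes. Cadherins and protocadherins had 20 of 59 (33.9%, 22.1 to 47.4), with Pcdh9 (3906 bp) and Pcdh8 (3369 bp) next to Pcdh17 and Pcdh10. Orphan and adhesion receptors coupled to G proteins had 28 of 70 (40.0%, 28.5 to 52.4), with Gpr37 (2299 bp), Gpr135 and Gpr12 among the widest and a median of 1195 bp.

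Solute carriers and the families that follow had smaller shares of all their promoters in the set, though not in each case of those with H3K4me2. Solute carriers had 75 of 349 (21.5%, 17.3 to 26.2), led by Slc30a3 (a vesicular zinc transporter, 3523 bp), Slc35d3, Slc37a1 and Slc27a1. Cytokine, chemokine and immune receptor genes had 41 of 252 (16.3%, 11.9 to 21.4), near the 14.5% of all promoters, led by Il17rb, Ccr10 (3176 bp), Cxcr4 (the receptor of the chemokine Cxcl12, 2647 bp) and Cd83 (2472 bp), and 146 of the 252 had neither mark. Of the 97 with H3K4me2, 42.3% were members, beside 21.8% over all promoters with H3K4me2. At Cxcr4 the nearest H3K27ac peak was 175 kb away in every list, and its H3K4me2 peak stood among the highest 0.137% by score. Keratins had 8 of 45 (17.8%, 8.002 to 32.1), Krt79, Krt7, Krt18 and Krt8 among them, with 35 at neither mark, and the 8 were 80% of the 10 with H3K4me2. Cytochrome P450 genes had 9 of 95 (9.47%, 4.42 to 17.2), with Cyp26a1 (retinoic acid breakdown, 2703 bp), Cyp27b1 (vitamin D activation, 2008 bp), Cyp2s1 and Cyp1a1 the widest, and the 9 were 37.5% of the 24 with H3K4me2. Zfp genes had 24 of 347 (6.92%, 4.48 to 10.1), since 288 of the 347 carried H3K27ac, and Zfp804a, Zfp53, Zfp711 and Zfp800 were the widest.

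Of 1395 olfactory and vomeronasal receptor promoters 3 were members (0.215%, 0.0444 to 0.627), namely Olfr94, Olfr983 and Olfr159, and 1389 had neither mark. No other promoter of this list had H3K4me2. Of 203 ribosomal and proteasome promoters 2 were members (0.985%, 0.120 to 3.51), and 196 carried H3K27ac. These were Psma6, a proteasome subunit whose H3K27ac lay inside the gene in all 5 lists, with 4 of the 5 peaks in mm9 lists at another annotated start of the gene, and Rps6kl1, a kinase gene that the name pattern caught. Of the 2616 promoters, 596 belonged to at least 1 of the 19 lists, so most members fell into none of them. Several of the smaller counts moved with the peaks counted: with the higher-scoring 50% of H3K4me2 peaks, cytokine and immune receptor members numbered 26, keratins 3, cytochrome P450 genes 5, olfactory and vomeronasal receptors 1 and ribosomal and proteasome genes 1. With the higher-scoring 50% of each H3K27ac list, Zfp members numbered 50 and cytochrome P450 members 15.

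**Figure D3:**
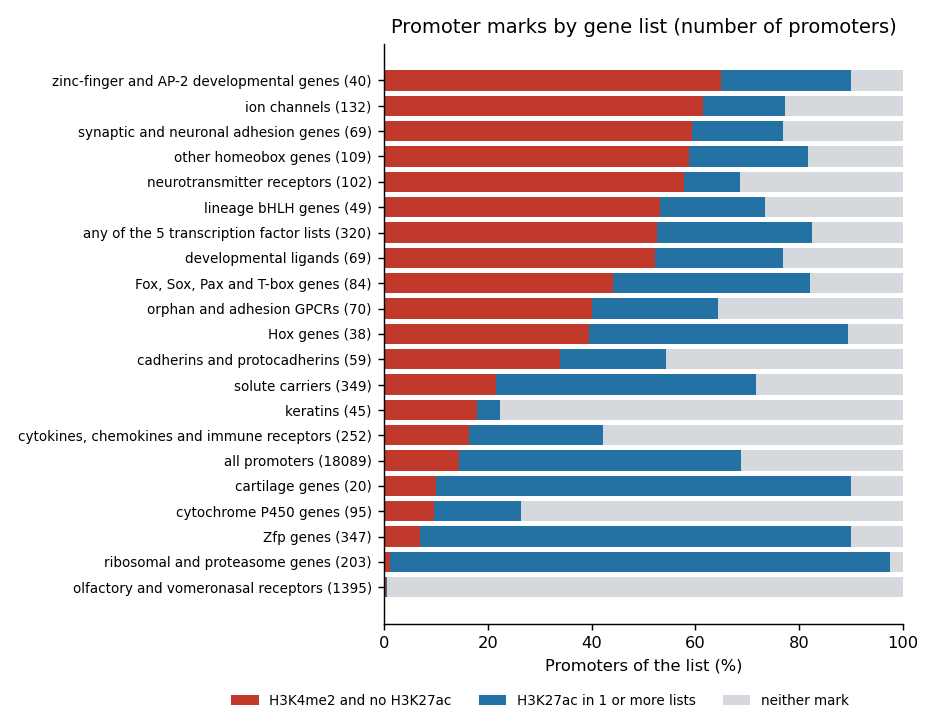
Percent of promoters (horizontal axis) with H3K4me2 and no H3K27ac (red), with H3K27ac in at least 1 list (blue) and with neither mark (grey) in each gene list, with the number of promoters in brackets. The red share is 65.0% for zinc-finger and AP-2 developmental genes and 61.4% for ion channels, beside 14.5% for all promoters and 0.985% for ribosomal and proteasome genes.

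Marker genes of other cell types were also counted, beside the 14.5% of all promoters in the set. Neuronal markers had 5 of 7 members (71.4%, 29.0 to 96.3), Syt1, Nefl, Stmn2, Elavl4 and Tubb3, and epithelial markers 5 of 8 (62.5%, 24.5 to 91.5), Ocln, Epcam, Cdh1, Krt18 and Krt8. Skeletal muscle had 3 of 8 (Des, Myf5 and Pax7), glia 3 of 7 (Gfap, Olig2 and Mbp), blood 2 of 9 (Tal1 among them), endothelium 2 of 8 (Kdr and Cldn5) and osteoblasts 2 of 6 (Dmp1 and Alpl), and the intervals of these 5 shares reached from at most 9.90% to at least 60.0%, so they hold 14.5%. Neither mark was found at 7 of the blood, 5 of the muscle and 5 of the endothelial markers. None of the 7 neuronal, 8 epithelial, 8 muscle or 9 blood markers had H3K27ac at its promoter in any list. Adipocyte and fibroblast markers had no member among 6 and 8, where H3K27ac was found at 2 adipocyte markers. H3K4me2 at Nefl, which encodes a neurofilament, stood among the highest 0.203% of the list by score and was 1802 bp wide. Whether cells of these types were in the cultures was not tested.

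Of cartilage genes, 2 of 20 promoters were members, those of Sox5 and Matn4. The share was 10% (1.23 to 31.7), an interval that holds the 14.5% of all promoters. Sox5 works beside Sox9 in cartilage differentiation. Its annotated start lay under an H3K4me2 peak of 2631 bp, and the nearest H3K27ac peak was 27.6 kb away in the first chondrocyte library, 163 kb in the second, 162 kb in WT, 164 kb in deletion chondrocytes and 293 kb in fibroblasts. H3K27ac was nonetheless found inside the gene, which is 954 kb long, in all 5 lists, with 46 peaks in the 4 mm9 lists, of which 2 lay at another annotated start. Matn4, a matrilin of the cartilage matrix, had H3K27ac inside the gene in the first chondrocyte and WT libraries alone, 1.20 kb from its start in the first and 15.2 kb in WT. Both of these peaks lay at the starts of other genes, Rbpjl and Slpi, and 1 of them also lay at another annotated start of Matn4.

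H3K27ac elsewhere in the gene was found in a minority of the set. Of 2600 genes in the set with any sequence beyond 1 kb from the start, 698 (26.8%, 25.2 to 28.6) carried an H3K27ac peak there in at least 1 list, beside 48.8% over all genes, 71.6% (70.6 to 72.5) of genes with both marks at the promoter and 12.6% (11.7 to 13.6) of genes with neither. With only the higher-scoring 50% of each H3K27ac list counted the share in the set was 15.7%. H3K27ac was found in all 5 lists at 144 genes (5.54%) and in exactly 1 list at 259 (9.96%), beside 17.4% and 10.3% over all genes. By list, the share was 17.9% (16.5 to 19.5) in the first and 9.38% (8.29 to 10.6) in the second chondrocyte library, beside 38.0% and 26.8% over all genes. It was 16.5% (15.1 to 17.9) in WT, 11.7% (10.5 to 13.0) in deletion chondrocytes and 15.6% (14.2 to 17.1) in fibroblasts, beside 37.7%, 29.3% and 31.2%. The pair of chondrocyte replicates therefore differed by more than the WT and deletion libraries did, and no difference between groups can be read from these shares. The replicate lists also differed in score scale, from 50 to 3100 in the first and from 13 to 322851 in the second, and in genome build. Their gap is thus not a measure of replicate spread alone. H3K27ac was found in fibroblasts and in no chondrocyte library at 111 genes (4.27%, 3.52 to 5.12), beside 2.78% over all genes. It was found in at least 1 chondrocyte library and not in fibroblasts at 292 (11.2%), beside 17.6%. In all 4 chondrocyte libraries and not in fibroblasts it was found at 34 (1.31%, 0.907 to 1.82), beside 3.06%. Chondrocytes had 4 lists and fibroblasts 1, so these counts do not compare the tissues.

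The share with H3K27ac elsewhere was higher in longer genes. In the set it went from 6.29% (4.61 to 8.36) of genes under 10 kb to 17.9% (15.1 to 21.0) at 10 to 30 kb, 34.8% (31.2 to 38.5) at 30 to 100 kb and 54.3% (50.01 to 58.5) at 100 kb and over. Genes with both marks at the promoter went from 61.7% to 90.6% over the same classes, and genes with neither mark from 3.83% to 50.9%. The set and the genes with neither mark had overlapping intervals at 100 kb and over, and the median gene of the set was longer, at 26.2 kb against 6.99 kb. Within the set, genes of the 5 transcription factor lists carried H3K27ac elsewhere in 9.09% (15 of 165), lineage bHLH genes in 0 of 24, where a count of 0 allows a share of up to 12.5% (3 counts of the total), and synaptic genes in 34.1% (14 of 41).

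**Figure D4:**
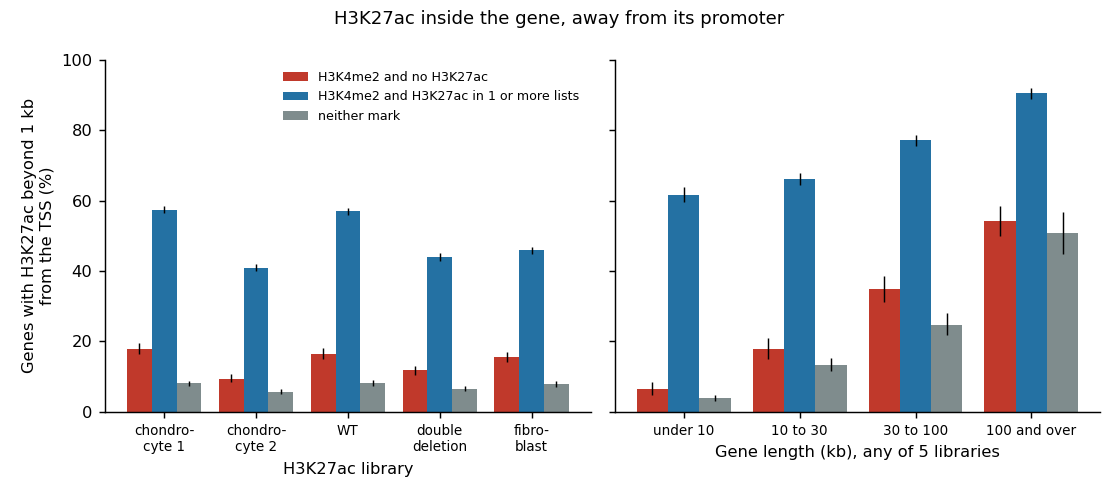
Percent of genes with an H3K27ac peak beyond 1 kb from the TSS (vertical axes), by library (left) and by gene length in kb over any of the 5 libraries (right), for genes with H3K4me2 and no H3K27ac at the promoter (red), with both marks (blue) and with neither (grey), with 95% exact binomial intervals. Red bars run from 9.38% to 17.9% by library and from 6.29% to 54.3% by gene length.

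Some of this H3K27ac lay at other starts of the same gene. At 190 of the 2616 promoters (7.26%, 6.30 to 8.33) another annotated transcript start of the gene had an H3K27ac peak within 1 kb, beside 4.84% over all 8279 promoters without H3K27ac at the main start. That is 27.2% of the 698 genes above. In the 689 genes of the set with H3K27ac inside the gene in an mm9 list, 584 (84.8%) had at least 1 such peak away from every annotated start. A peak lay at the start of another protein-coding gene in 41, and 105 (15.2%) had peaks at starts alone. These counts have no value over all genes beside them, so they do not set the members apart. Among the genes with H3K27ac in all 5 lists, the most H3K27ac, as base pairs summed over the lists, was in Dnm3 (a dynamin of synapses, 198533 bp), Sox5 (64999 bp), Phactr2 (a phosphatase and actin regulator, 63482 bp), Palld (palladin, an actin cross-linker, 55249 bp), Iqsec1 (a guanine nucleotide exchange factor for Arf6, 53174 bp) and Syn3 (a synapsin, 52570 bp). Dnm3, Phactr2, Palld and Iqsec1 had H3K27ac at another annotated start, with 10 of 106, 4 of 39, 8 of 46 and 11 of 37 peaks there. In Syn3, 4 of 53 peaks lay at the start of Timp3, an inhibitor of metalloproteinases encoded inside Syn3, and none at another start of Syn3. At Hoxb8 all 5 peaks of the mm9 lists inside the gene lay at the start of Hoxb7, and 1 of them also at another annotated start of Hoxb8.

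Measured from the TSS in either direction, inside the gene or outside it, the nearest H3K27ac peak of any list lay a median of 30.8 kb (29.4 to 32.9) away, against 66.0 kb (62.3 to 70.4) for promoters with neither mark. It lay within 10 kb at 511 promoters (19.5%), beside 61.7% of all promoters and 14.9% of those with neither mark. Within 100 kb it lay at 2109 (80.6%), beside 84.2% and 58.5%, and within 2 kb at 87 (3.33%), beside 55.2% and 1.64%. All promoters here include those with H3K27ac at the promoter itself. By list the median ran from 42.9 kb in WT to 57.6 kb in the second chondrocyte library. Among the farthest were Slitrk4 at 3730 kb, Cdh10 at 1824 kb and Cbln2 at 1759 kb, all genes of synapses or neuronal adhesion.

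The limit of 1 kb set which promoters entered. Just outside it, the nearest H3K27ac peak lay 1005 bp from the start of Hsf2bp, 1018 bp from Rasip1, 1020 bp from Scrt1 and 1022 bp from Akap7. Just inside it, a peak of a single list lay 983 bp from the start of Pacsin3 and of Pde4a and 980 bp from Abca17, and these were left out of the set. A single H3K27ac list decided 600 promoters with H3K4me2, of which 277 had it in fibroblasts, 161 in WT, 103 in the first and 59 in the second chondrocyte library, and 0 in the deletion library.

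In base composition the promoters without H3K27ac stood between the other classes. Over 1 kb centred on the TSS the median GC content was 58.0% (57.6 to 58.3), beside 59.5% for promoters with both marks and 45.4% for those with neither. The ratio of observed to expected CpG was 0.570 (0.559 to 0.582), beside 0.749 and 0.172. A promoter was called CpG-rich at a GC content of 55% and a ratio of 0.6 or more, and 1074 promoters of the set were (41.1%, 39.2 to 43.0), which is the same share as over all promoters, 41.1%, and lies between 65.9% and 1.41% in the other classes. Promoters with H3K27ac in exactly 1 list had a ratio of 0.583 (0.561 to 0.606), an interval that holds the value of the set. CpG-rich members had wider H3K4me2 peaks, at a median of 1799 bp (1754 to 1851) against 1312 bp (1272 to 1348) for the rest, and the CpG-rich share went from 18.6% of members with peaks under 1 kb to 61.9% at 3 kb and over. Of the 168 members in transcription factor lists 58.3% were CpG-rich, against 12.2% of the 41 in the cytokine and immune receptor list and 0 of 8 keratins, where a count of 0 allows up to 37.5% (3 counts of the total). Across the 2616 members the rank correlation of width and CpG ratio was 0.40, a description over promoters of 1 library.

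**Figure D5:**
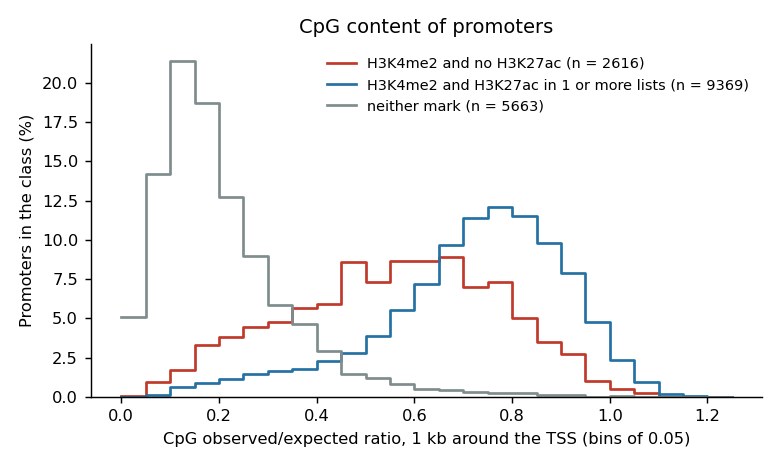
Ratio of observed to expected CpG over 1 kb around the TSS (horizontal axis, bins of 0.05) against the percent of promoters in each class (vertical axis), for promoters with H3K4me2 and no H3K27ac (red), with both marks (blue) and with neither (grey). The red curve is broad, with a median of 0.570, between the grey one at 0.172 and the blue one at 0.749.

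The letters TATAAA, on either strand between 250 bases before and 50 bases after the TSS, were present in 248 members (9.48%, 8.38 to 10.7), beside 13.0% of all promoters, 6.20% of those with both marks and 25.7% of those with neither. CCAAT on either strand was present in 35.3%, beside 38.5% of all promoters. Matches of the 2 motifs were counted separately and may overlap, and each is a description of the sequence only. Of the sequences printed above, Hoxb8 held TATAAA or its reverse complement. A protein-coding start on the opposite strand lay within 1 kb, on either side, at 93 members (3.56%), beside 10.5% of all promoters, 18.4% of those with both marks and 0.989% of those with neither. Another gene start of any type lay within 2 kb at 332 members (12.7%), beside 19.2% of all promoters.

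Members lay next to each other along the chromosomes in places. Counted over the protein-coding genes in order, 1632 members had no member as a direct neighbour, 344 stretches held 2, 70 held 3 and 20 held 4 or more. With 14.5% of all promoters in the set, some members would be neighbours in a random order too. No reference was set beside these counts, so clustering was not tested. The longest held 7, from Prkag3 to Ihh on chromosome 1 (chr1:74795795-74998246), with Wnt6, Wnt10a, Cdk5r2, Fev and Cryba2 between them. Stretches of 5 ran from Hoxa9 to Evx1 on chromosome 6, from Nkx2-4 over Nkx2-2, Pax1 and Foxa2 to Sstr4 on chromosome 2, and from Tub to Trim66 on chromosome 7, and a stretch of 4 held Gsx1, Pdx1, Cdx2 and Flt3 on chromosome 5. The 2616 promoters had 2579 distinct widest peaks, since 37 peaks were shared by 74 members, so these are not separate measurements. By chromosome the share of promoters in the set ran from 10.9% on chromosome 7 to 18.1% on chromosome 12.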

How the data were processed

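The submitters' processing notes name fastp, Bowtie2 2.4.4 and MACS2 2.2.4, with which, by the study's methods, the authors cleaned and aligned reads and called peaks against input. The deposited peak lists give each peak a score, which was used here to rank peaks within a list and never to compare lists, since score scales differ between lists. Of the 6 lists, 5 met gene starts on mm9 and the second chondrocyte H3K27ac list on GRCm38 (7791 promoters, against 1128 with mm9 starts), although its notes name mm9. No coordinate was converted.

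Protein-coding genes of GENCODE vM1 (mm9) on chromosomes 1 to 19 and X were matched by symbol to RefSeq GRCm38.p6, and 18089 of 22350 matched. The annotated starts of 2278 of 2616 members (87.1%) kept the same place in both annotations within 1 kb, judged by the shift of neighbouring genes. Among genes named, the starts of Bcl11a, Cyp1a1, Dmp1, Fgf11, Gfap, Gpr12, Hoxb8, Ihh, Iqsec1, Kdr, Krt7, Lhx4, Mndal, Pcdh9, Ppef2, Slc30a3, Slc35d3, Zfp53 and Zfp804a did not, so the second chondrocyte list was read elsewhere for them. Overlaps were computed with numpy 2.4.6, pandas 2.3.3 and pysam 0.24.0 and checked with bedtools 2.31.1 and on simulated peak lists. Sequences are from the mm9 reference. Shares have exact Clopper-Pearson 95% intervals from scipy 1.17.1, and medians have binomial order-statistic intervals. Read depth is not given in the sources used here. The set and the gene lists were chosen with earlier results of these data known. Named genes are the 10 widest and 10 highest-scoring members, the 4 widest of each list, those nearest the 1 kb limit, the 6 with most H3K27ac inside the gene, and marker genes. The lowest-scoring, narrowest and farthest members, the other Hox genes and the stretches of neighbouring members were named after their values were seen. Some genes that these rules name are not reported here.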

Additional observations from a re-analysis of the deposited data

How the results depend on the processing

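The number of member promoters stayed within 1.5 times of 2616 under all 14 alternatives, from 2112 to 3478. Leaving out an H3K27ac list could not lower the number. Without the deletion list it was 2616 again, since no promoter with H3K4me2 had H3K27ac in that list alone. Leaving out 1 chondrocyte H3K27ac replicate gave 2675 to 2719 promoters, median widths of 1497 to 1507 bp, and shares with H3K27ac elsewhere in the gene of 23.1% to 27.2%. The median width of 1500 bp moved to 1541 bp with a 500 bp window or without the fibroblast list, 1653 bp with the higher-scoring 50% of H3K4me2 peaks, 1603 bp with the higher-scoring 50% of H3K27ac peaks, 1574 bp where the peak had to cover the TSS, and 1544 bp when peaks were summed. The share of 26.8% moved to 15.7% with the higher-scoring 50% of H3K27ac peaks and to 23.1% without the fibroblast list. It was 21.2% where every annotated transcript start had to lack H3K27ac in the mm9 lists, and 21.1% in both builds. Beyond 5 kb from the TSS it was 28.9%, over only the genes with sequence beyond 5 kb. A greater distance cannot add genes with a peak, so this rise comes from the smaller total. The requirement in both builds and the limit to genes with the same start in both annotations (2278 promoters) were chosen after seeing the data. Apart from the rise beyond 5 kb, the cause of these moves was not tested. The 168 members in transcription factor lists became 127 and 183 with the higher-scoring 50% of H3K4me2 and H3K27ac peaks. No paired analysis was possible because only 1 group has replicates and no test was made. Depth is unknown, and peaks below the calling limit would count as absent.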
